A study of Solanum lycopersicum with 12 samples.

Results

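Among 34075 genes counted in tomato fruit RNA, 111 were higher in the slnor mutant than in wild type (WT) at the breaker stage and had similar levels in both genotypes 7 days later. They were chosen by their measured levels. Counts were scaled to the library total as CPM, averaged over each group, and raised by 0.5. A gene was kept when this value was at least 5.5 in slnor at breaker, when slnor over WT was at least 2.5 at breaker, and when slnor over WT lay between 0.67 and 1.5 at the later stage. All 111 passed the low-count filter that left 20070 genes for testing.

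The data are 12 RNA-seq libraries of fruit, 3 in each of 4 groups. The groups are WT of the cultivar Ailsa Craig and slnor, a CRISPR mutant of the transcription factor gene NOR made in Ailsa Craig, each sampled at breaker, when a green fruit first shows colour, and 7 days later. All plants came from a controlled greenhouse. The labels do not give the sequence change in slnor, whether it is 1 line or several, the part of the fruit, or whether each replicate was its own plant. The p-values below therefore cover the variation among these libraries, which may be technical.

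NOR is a NAC-family transcription factor, and tomato fruit without its full activity ripen late or incompletely. Jasmonate is an oxylipin hormone made from a plastid fatty acid by lipoxygenase, allene oxide synthase and allene oxide cyclase in turn. Its active form brings JAZ repressor proteins to the receptor COI1 for destruction, which frees transcription factors such as MYC2, and JAZ genes are themselves induced by jasmonate. Pathogenesis-related proteins such as chitinases and osmotin-like proteins accumulate in wounded or infected tissue and also in ripening fruit.

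The NOR transcript was present in every library, and its level cannot check an edit that leaves the transcript in place. The CPM values given here and below carry TMM scaling, which corrects for differences in library composition. NOR (Solyc10g006880.3) stood at 978, 970 and 955 CPM in the 3 WT libraries and 776, 792 and 896 CPM in the 3 slnor libraries at breaker. With TMM scaling it was called lower in slnor at breaker (log2 fold change -0.24, edgeR adjusted p = 0.000563). It was called higher in slnor later (0.23, edgeR adjusted p = 0.000705). On library totals with the added 0.5, its slnor over WT ratio at breaker was 0.9583. Library totals ran from 50714230 to 69124795 counts. The fruit markers E8, E4, PG2a and PSY1 summed to 38300 to 39500 CPM in WT and 16400 to 18400 CPM in slnor at breaker, and all 4 were lower in slnor. Markers of other tissues moved as well. Green-tissue markers (3 of 4 lower in slnor) summed to 771 to 829 CPM in WT and 593 to 653 CPM in slnor at breaker. Epidermis markers (2 of 3 higher and 1 lower) summed to 286 to 301 CPM in WT and 72.3 to 78.4 CPM in slnor. Seed oleosins (1 of 5 higher and 1 lower) summed to 70.1 to 77.7 CPM with 2 of the 5 at no count in WT, and to 8.95 to 10.8 CPM with 1 at no count in slnor. None of these markers is among the 111 genes, and the part of tissue composition in the values below was not tested. In bulk fruit RNA, fewer cells of a type and less RNA per cell cannot be told apart.

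At breaker, the median level of the 111 genes was 3.78 CPM in WT and 14.4 CPM in slnor. At 7 days after breaker it was 4.67 CPM in WT and 5.56 CPM in slnor. The slnor breaker fruit held the highest of the 4 group means for 97 of the 111 genes, WT at the later stage for 7, slnor at the later stage for 7 and WT at breaker for 0. As shares of the TMM-scaled library size, the genes summed to 0.176% to 0.19% in WT and 0.514% to 0.57% in slnor breaker libraries. In the later libraries they summed to 0.361% to 0.384% in WT and 0.399% to 0.412% in slnor.

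The breaker difference is the one that chose the genes, so its size is a description. The median log2 fold change between slnor and WT was 1.75 at breaker, against 0.02 over all genes tested. It ran from 1.16 to 6.46 over the 105 genes with a count in every group. At an adjusted p under 0.05 in edgeR's quasi-likelihood test, 111 of 111 were higher at breaker, where 25.6% of all tested genes were. The 3 slnor libraries lay above the 3 WT libraries for 110 of the 111, where 29.7% of tested genes showed this. The exception, Solyc08g066140.3, is described below.

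**Figure D1:**
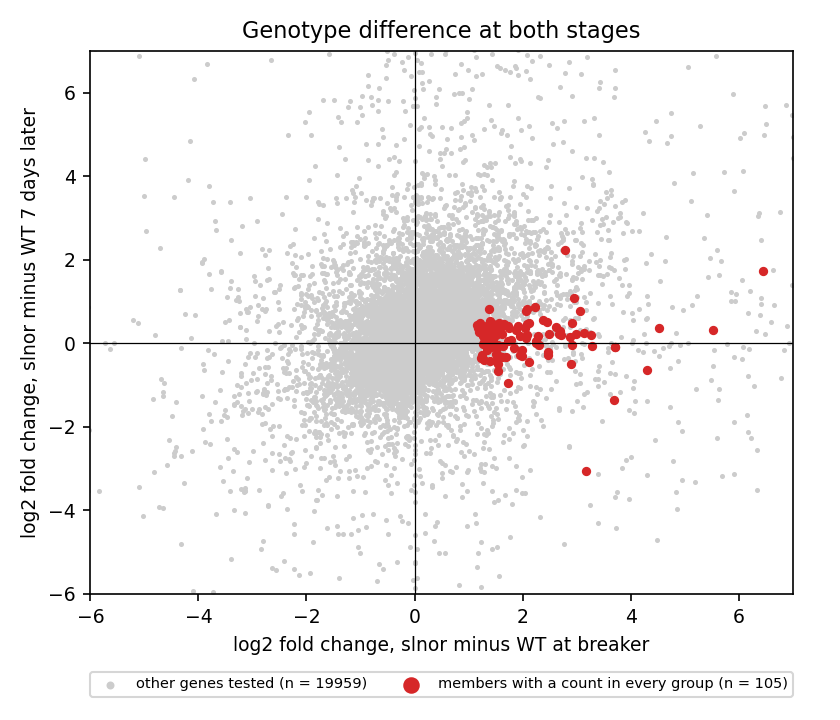
Each point is 1 gene, with the log2 fold change of slnor over WT at breaker on the x axis and 7 days later on the y axis, in grey for 19959 other tested genes and in red for the 105 chosen genes with a count in every group. The red points lie between 1.16 and 6.46 on the x axis, where the choice sets a lower limit only. A further 219 other genes beyond -6 or 7 are not drawn.

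Similar levels at the later stage did not mean that no difference was called there. Of the 111 genes, 34 were still higher in slnor 7 days after breaker, 17 were lower and 60 did not pass, where 28.5% of all tested genes were higher and 27.4% lower. With library totals alone, the scaling of the rule, 45 were higher and 12 lower. The slnor libraries lay above the WT libraries without overlap for 35 genes, where 32.0% of tested genes showed this, and below for 17, where 31.5% did. The median log2 fold change at that stage was 0.20, against 0.00 over all genes. On the scale of the rule, 83 of the 111 had a later ratio above 1, 39 had one at or above the inverse of 0.8 and 7 had one of 0.8 or less. The label "at breaker only" thus describes a ratio window and not an absence of later differences. Of all 454 genes that met the level and the ratio at breaker, 321 had a later ratio above 1.5, 22 had one below 0.67, and the 111 were the remaining 24.4%.

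The edges of the window fall among close values. The gene nearest inside the breaker ratio, Solyc04g079940.3, had a ratio of 2.508, and the nearest outside had 2.498. The gene nearest inside the later window, Solyc01g150164.1, had a ratio of 1.499, and the nearest outside had 1.508. At the lower edge the nearest ratios were 0.689 inside and 0.651 outside, and at the level limit the nearest raised values were 5.62 inside and 5.05 outside.

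Genes of 13 pathway lists were looked up among the 111, and 7 of them were found, on 4 lists. These were 3 of 15 jasmonate genes, 2 of 8 wound and defence genes in the table, 1 of 10 gibberellin genes and 1 of 7 genes of amino acid and GABA metabolism. None of the genes of the lists for heat shock, auxin, abscisic acid, ethylene synthesis, ethylene perception and response, ripening transcription factors, sugar, starch and acid metabolism, flavonoids and phenylpropanoids, or cell wall was among them. The count tables carry no gene names, so the other genes are known here by identifier alone.

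**Figure D2:**
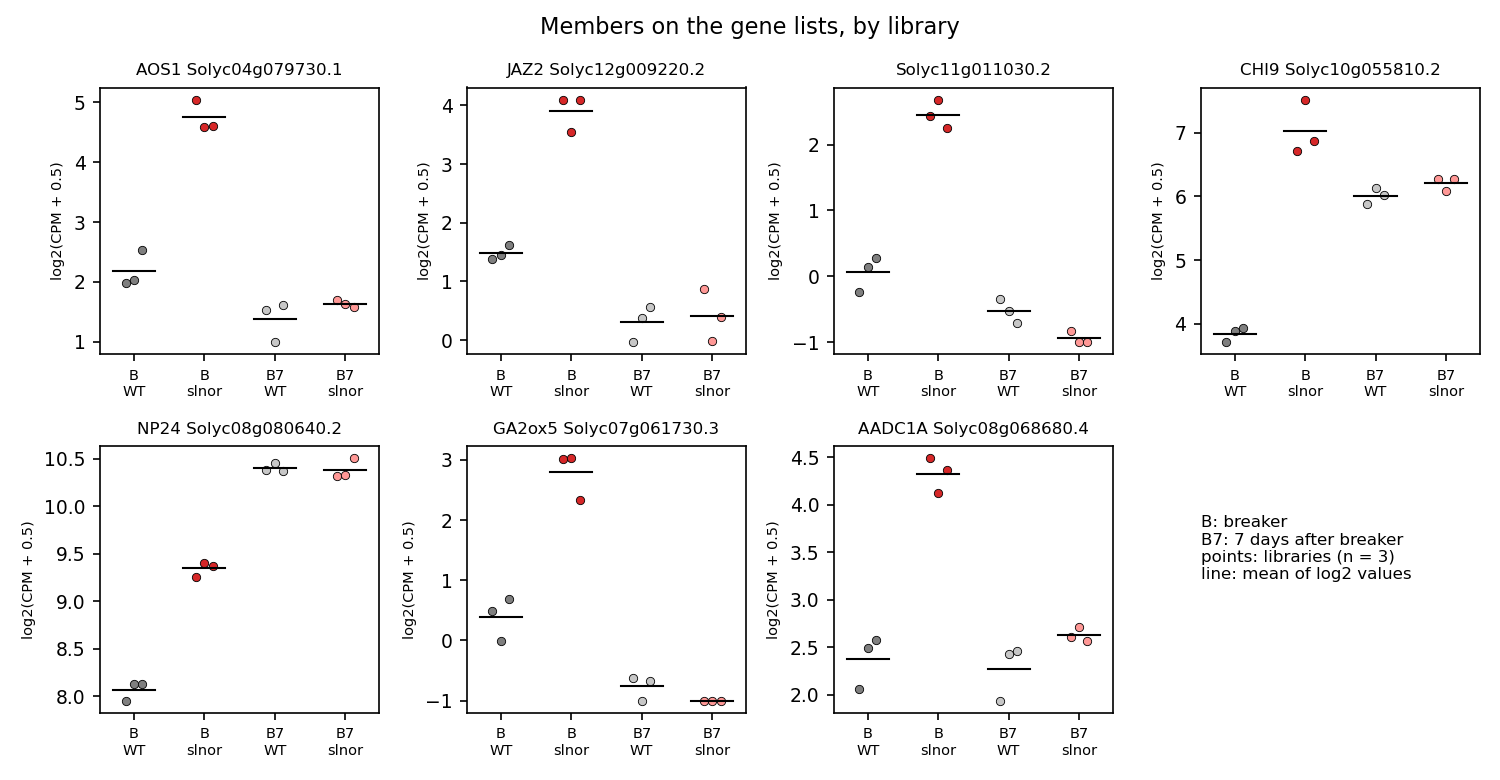
Each panel shows 1 of the 7 list genes, with log2(CPM + 0.5) on the y axis and the 4 groups on the x axis; points are libraries and lines are means of 3. Slnor at breaker is the highest group in every panel but that of NP24, which is highest at the later stage in both genotypes.

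In the first committed step of jasmonate synthesis, allene oxide synthase gene AOS1 (Solyc04g079730.1, chromosome 4) was much more abundant in slnor breaker fruit. Its level was 3.46, 3.59 and 5.30 CPM in the WT breaker libraries and 32.5, 23.5 and 23.9 CPM in the slnor breaker libraries. At 7 days after breaker it was 2.38, 1.49 and 2.56 CPM in WT and 2.73, 2.59 and 2.51 CPM in slnor. All 3 slnor breaker libraries stood above all 9 others, and the later groups overlapped. The log2 fold change at breaker was 2.69 (SE 0.18). With stage AOS1 fell in WT, by 0.94 on the log2 scale (SE 0.20, edgeR adjusted p = 0.000569), and in slnor it fell by 3.35 (SE 0.19).

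The repressor gene JAZ2 (Solyc12g009220.2, chromosome 12) had the same order of groups at breaker. Its breaker levels were 2.10, 2.23 and 2.57 CPM in WT and 16.6, 11.2 and 16.5 CPM in slnor, without overlap. Later it was at 0.476, 0.795 and 0.980 CPM in WT and at 1.33, 0.490 and 0.814 CPM in slnor, and these groups overlapped. JAZ2 was 2.68 log2 units higher in slnor at breaker (SE 0.24) and fell with stage in WT by 1.60 (SE 0.29, edgeR adjusted p = 0.000126). In slnor it fell by 4.06 (SE 0.27).

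The jasmonate list holds a further member, Solyc11g011030.2 on chromosome 11, whose listed name could not be matched and is not used. Its level was 0.351, 0.598 and 0.717 CPM in WT and 4.92, 5.93 and 4.26 CPM in slnor at breaker, and it lay close to the level limit. Later it was 0.286, 0.195 and 0.111 CPM in WT and 0.0610, 0.00 and 0.00 CPM in slnor, so that slnor stood above WT at breaker and below it later, with no overlap at either stage, on few counts at the later one. Its WT stage change was a fall of 1.52 log2 units (SE 0.44, edgeR adjusted p = 0.00634). Without slnor breaker replicate 2 its level dropped under the limit of the rule.

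Of the 15 jasmonate genes, 10 were called above WT and 3 below in slnor breaker fruit, with a median log2 fold change of 1.35, but this count includes the 3 genes chosen for being higher. Over the other 12 genes, 7 were called higher and 3 lower, with a median of 0.53, where 25.6% of all tested genes were higher and 23.7% lower. At 7 days after breaker, 5 of these 12 were higher and 2 lower, where 28.5% and 27.4% of tested genes were. With library totals alone as scaling, the breaker counts over all 15 were 12 above and 2 below, and with DESeq2 they were 9 above and 3 below. The genes had been listed with results of these data known, so these counts are a description. LOXD (Solyc03g122340.3), the lipoxygenase that starts the pathway, was at 30.7, 38.2 and 37.6 CPM in WT and 174, 141 and 147 CPM in slnor at breaker. It remained out of the 111 because its later levels were 38.0, 42.4 and 43.2 CPM in WT and 82.5, 79.2 and 85.0 CPM in slnor, a ratio above the window. JAZ3 (Solyc03g122190.3) and Solyc07g042170.3 also met the breaker ratio and exceeded the later window, with ratios of 1.56 and 1.69. The allene oxide synthase AOS2 (Solyc11g069800.1), the conjugating enzyme JAR1 (Solyc10g011660.3) and the receptor COI1 (Solyc05g052620.4) were the 3 genes called lower in slnor at breaker, with log2 fold changes of -0.70, -0.86 and -0.26. On library totals with the added 0.5, the ratios of these 3 were 0.6963, 0.6427 and 0.9465, so the genotypes differed in opposite directions for AOS1 and AOS2 under both scalings.

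**Figure D3:**
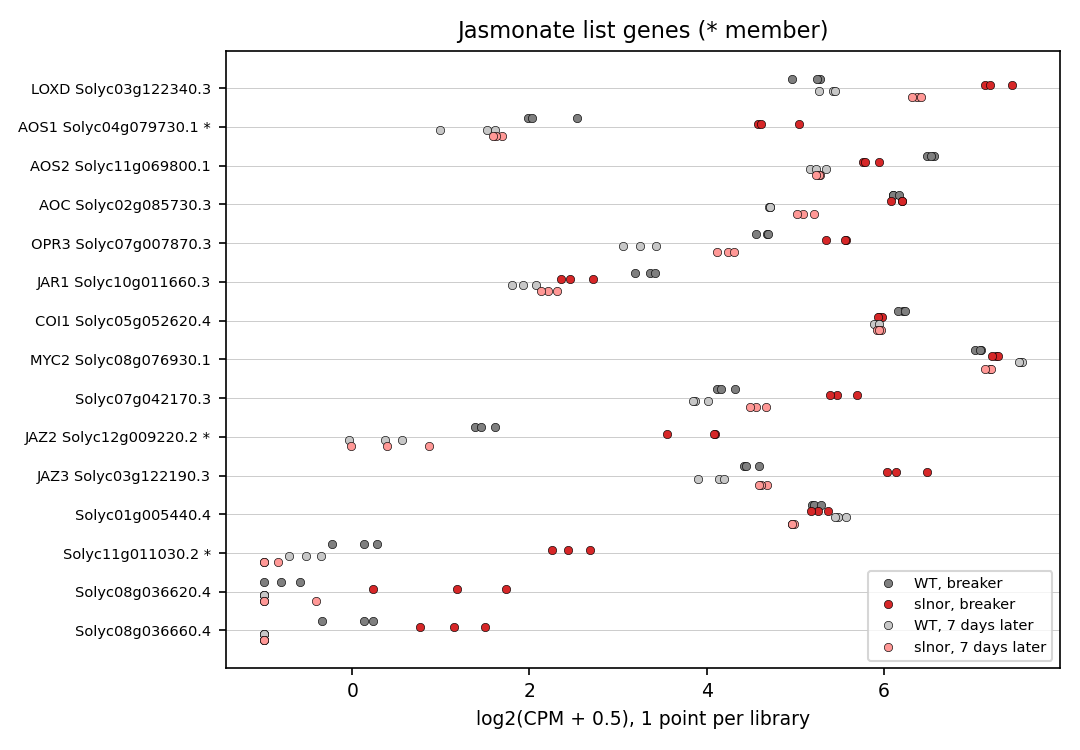
Each row is 1 of the 15 jasmonate list genes, each point 1 library, and the x axis is log2(CPM + 0.5); asterisks mark the 3 chosen genes. The slnor breaker points (dark red) lie to the right of the WT breaker points (dark grey) for LOXD, AOS1 and JAZ2, and to the left for AOS2 and JAR1.

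Both defence genes among the 111 rose with stage in WT. Of the 6 tested genes on the wound and defence list, these 2 were called higher in slnor at breaker and 2 lower. Over all tested genes, 25.6% were higher and 23.7% lower. CHI9 (Solyc10g055810.2, chromosome 10) encodes a basic chitinase, an enzyme that cuts chitin of fungal walls. Its level was 12.6, 14.3 and 14.8 CPM in WT and 104, 183 and 117 CPM in slnor at breaker. Later it was 58.5, 69.9 and 64.2 CPM in WT and 76.5, 67.5 and 76.9 CPM in slnor. The breaker slnor libraries were above all others and the later groups overlapped. CHI9 rose in WT by 2.21 log2 units (SE 0.16, edgeR adjusted p = 3.19e-09) and fell in slnor by 0.87 (SE 0.14). The genotypes thus moved in opposite directions, toward later levels that the rule required to be alike.

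NP24 (Solyc08g080640.2, chromosome 8), an osmotin-like pathogenesis-related protein gene, was the highest of the 111 per length at the later stage, at 1688 ± 58.5 FPKM in WT and 1784 ± 128 FPKM in slnor (SD, n = 3). Its level was 248, 280 and 279 CPM in WT and 612, 678 and 663 CPM in slnor at breaker. Later it stood at 1332, 1408 and 1328 CPM in WT and 1277, 1287 and 1454 CPM in slnor, with overlap. NP24 rose in both genotypes, by 2.33 log2 units in WT (SE 0.06, edgeR adjusted p = 1.52e-15) and by 1.04 in slnor (SE 0.06). Its slnor breaker level was 0.480 times the later WT level, the lowest such ratio among the 111. Scaled by TMM, its breaker fold was 2.42 and so below the 2.5 of the rule. The sources used here do not say how reads shared between related genes were counted. This touches CHI9 in particular, since Solyc10g055760.2 and Solyc10g055800.2, within 5 rows of it in the gene table, were also among the 111.

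The gibberellin 2-oxidase gene GA2ox5 (Solyc07g061730.3, chromosome 7), whose enzyme class inactivates gibberellins, was detected mainly in slnor breaker fruit. Its level was 0.907, 0.489 and 1.11 CPM in WT and 7.61, 7.66 and 4.51 CPM in slnor at breaker. Later it was 0.152, 0.00 and 0.126 CPM in WT and had no count in any slnor library. With stage it fell by 3.17 log2 units in WT (SE 0.56, edgeR adjusted p = 0.000147). In slnor the breaker level was at least 409-fold higher than the later one, with 3 counts over the 3 libraries in place of 0. Of the 7 tested genes on the gibberellin list, GA2ox5 alone was called higher in slnor at breaker, and 3 were called lower. AADC1A (Solyc08g068680.4, chromosome 8), a decarboxylase of aromatic amino acids on the way to phenylethanol volatiles, was at 3.67, 5.13 and 5.49 CPM in WT and 22.0, 17.0 and 20.1 CPM in slnor at breaker. Later it was at 3.33, 4.90 and 4.99 CPM in WT and 5.6, 6.07 and 5.44 CPM in slnor. Its WT levels at both stages overlapped and the WT stage change did not pass (log2 fold change -0.11, SE 0.16, edgeR adjusted p = 0.58). In slnor it fell by 1.79 log2 units (SE 0.15). At the later stage the slnor libraries of AADC1A lay above the WT libraries without overlap, but the difference did not pass (0.36, SE 0.16), and it did pass under 5 of the alternatives tried.

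The stage change in WT is a contrast the rule does not use, although both of its group means enter the rule, and low WT breaker levels favour selection. In WT, 52 of the 111 genes rose over the 7 days, 35 fell and 24 did not pass, where 33.2% of all tested genes rose and 32.1% fell. The median log2 fold change was 0.25, against 0.00 over all genes. In slnor, 93 fell, 11 rose and 7 did not pass, and the later libraries lay below the breaker libraries without overlap for 96. Of all tested genes, 26.0% fell in slnor, 26.2% rose and 30.2% lay below without overlap. The median was -1.53, against -0.01 over all genes. Because the rule fixes both genotype ratios, the slnor change is tied to the WT change, and it is given as a description. The same holds for the interaction, which was lower in slnor for 103 genes and higher for 0 (background 20.4% and 21.8%).

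The 3 WT classes are described here by level and by where slnor breaker fruit stood relative to later WT fruit. The rule ties that place to the WT change. A gene above WT at breaker that falls in WT must also stand above later WT fruit. With the later ratio limited, a fall in slnor follows as well, so differences between the classes in these values are a description. Among the 52 genes that rose in WT, median levels were 5.98 CPM in WT breaker, 19.0 CPM in slnor breaker, 14.4 CPM in later WT and 12.2 CPM in later slnor fruit. Over these 52 genes the slnor breaker level was 1.74 times the later WT level at the median. It exceeded the later WT level for 40 genes, was below 0.8 times it for 7, and lay between 0.8 times it and the inverse of 0.8 for 10. In slnor, 34 of the 52 then fell, 11 rose and 7 did not pass. Among the 35 genes that fell in WT, medians were 2.12, 9.48, 0.441 and 0.623 CPM in the same order, and all 35 fell in slnor. The slnor breaker level of these 35 was 10.7 times the later WT level at the median. AOS1, JAZ2, Solyc11g011030.2 and GA2ox5 belong here. Among the 24 genes with no passed change in WT, medians were 3.8, 11.6, 3.6 and 4.65 CPM, and all 24 fell in slnor.

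**Figure D4:**
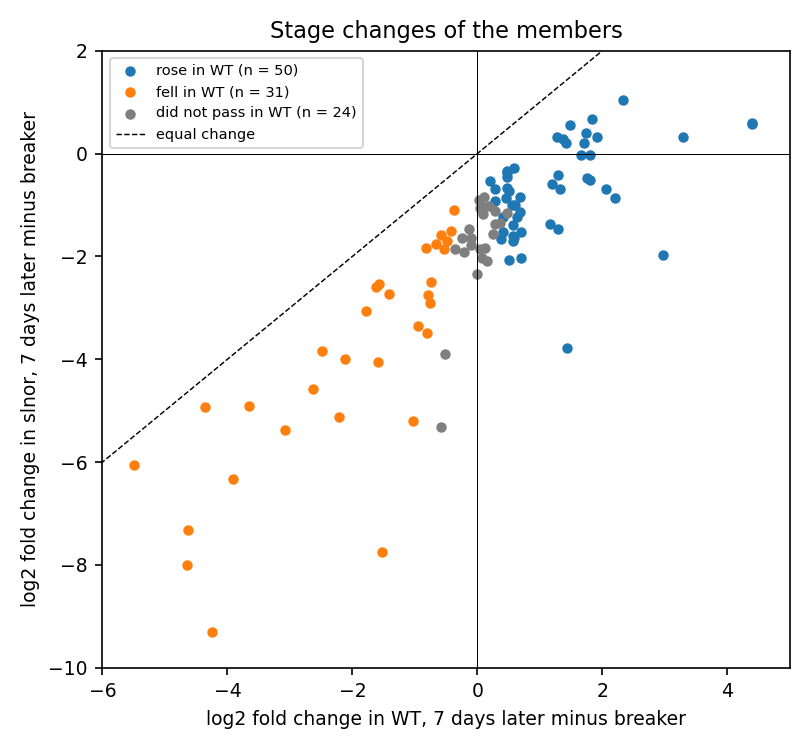
Each point is 1 of the 105 chosen genes with a count in every group, with the log2 fold change from breaker to 7 days later in WT on the x axis and in slnor on the y axis, coloured by the edgeR call in WT. The points lie below the dashed line of equal change, as the choice of the genes makes likely, and most genes that rose in WT (blue) lie below 0 on the y axis.

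The largest rises with stage in WT were those of Solyc01g059965.1 and Solyc04g025530.3, among genes called there without overlap. Solyc01g059965.1 rose from 2.37, 3.90 and 3.77 CPM at breaker to 70.0, 74.1 and 68.5 CPM later in WT, by 4.39 log2 units (SE 0.16, edgeR adjusted p = 2.40e-13), and was at 35.2, 55.5 and 41.8 CPM in slnor at breaker and 66.0, 64.8 and 68.1 CPM later. Its counts differed by at most 2.99% from those of the nearby Solyc01g060020.4. These may be the same measurement, and neither is certain as a gene of its own. Solyc04g025530.3 had no count in WT at breaker, 5.33, 4.66 and 4.19 CPM in slnor at breaker, and 0.152, 0.665 and 0.901 CPM in later WT fruit. Its slnor breaker level was at least 247-fold and its later WT level at least 29.9-fold that floor of 3 counts over the WT breaker libraries.

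At the other end, Solyc12g011033.1 and Solyc08g036640.3 had no count in later WT fruit. In later slnor fruit they were at 0.275, 0.00 and 0.358 CPM and at 0.229, 0.254 and 0.228 CPM. Both were thus called higher in slnor later as well (edgeR adjusted p = 0.00238 and 9.14e-05), on few counts. Solyc12g011033.1 was at 1.01, 0.526 and 1.09 CPM in WT and 4.42, 5.93 and 4.95 CPM in slnor at breaker, and its WT breaker level was at least 51.8-fold higher than its later one. Solyc08g036640.3 was at 0.392, 0.435 and 0.905 CPM in WT and 8.49, 4.34 and 6.23 CPM in slnor at breaker, with a WT fall of at least 34.1-fold. The order of the largest falls is not set, since folds against a group with no count are only bounds. Solyc12g010020.3, with counts in every group, fell 44.8-fold, on only 4, 0 and 0 counts in the later WT libraries. The identifier of Solyc08g036640.3 falls between those of Solyc08g036620.4 and Solyc08g036660.4, which are on the jasmonate list and were under the level limit.

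The largest breaker ratio of the rule belonged to Solyc08g066140.3, and its libraries split into 2 states. It had 1408, 0 and 1923 counts in the 3 slnor breaker libraries, 0 in each WT breaker library, 0, 2082 and 2004 in the later WT libraries and 1769, 1465 and 0 in the later slnor libraries. Counts were thus either absent or at 1408 or more within the same group, and its place among the 111 rests on group means over both kinds of library. The next largest ratio, 17.4, was that of Solyc04g040120.1, which had under 10 CPM in slnor at breaker on library totals, before 0.5 was added. Among genes with at least 10 CPM on that scale, Solyc01g087810.2 came next. Solyc01g087810.2 was at 0.0825, 0.290 and 0.226 CPM in WT and 8.53, 12 and 8.01 CPM in slnor at breaker. It was later at 0.495, 0.584 and 0.569 CPM in WT and 0.885, 0.676 and 0.505 CPM in slnor, which overlap, and it rose in WT by 1.43 log2 units (SE 0.36, edgeR adjusted p = 0.00217). Solyc10g017970.1, named here after its values were seen, was the other gene with a range of 3-fold or more within a group on the scale of CPM + 0.5, at 232, 88.8 and 18.2 CPM in the WT breaker libraries. It was also the highest of the 111 per length, at 1703 ± 153 FPKM (SD, n = 3) in slnor breaker fruit, with NP24 next at 923 ± 50.8 FPKM.

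Some of the genes lie close together in the gene table. Within windows of 5 rows of the gene table, 8 runs held 19 of the 111 genes, and the longest runs had 3. Runs were not counted over all tested genes, so these numbers do not show whether the 111 cluster. The 8 runs include that of Solyc01g059965.1 and Solyc01g060020.4, which may be the same measurement. One run is CHI9 with Solyc10g055760.2 and Solyc10g055800.2, which were at 56.3 ± 7.18 and 46.4 ± 4.61 CPM in slnor at breaker. Another holds Solyc01g087810.2 with its neighbours Solyc01g087790.2 and Solyc01g087800.2. By chromosome, the share of tested genes among the 111 ran from 0.153% on chromosome 11 to 0.831% on chromosome 8, leaving out sequences assigned to no chromosome. Median gene length was 1488 bases, against 1575 bases over the tested genes with a length.

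The 3 slnor breaker libraries were not equal over these genes. Replicate 2 was the highest of the 3 for 72 of the 111 genes, which is 64.9%, where it was the highest for 33.9% of all tested genes. Replicate 1 was highest for 28 and replicate 3 for 11. The median deviation from the group mean was -0.006, 0.1 and -0.081 log2 units in replicates 1, 2 and 3, well under the median breaker difference. Without slnor breaker replicate 2 the rule gave 98 genes, all of them among the 111.

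**Figure D5:**
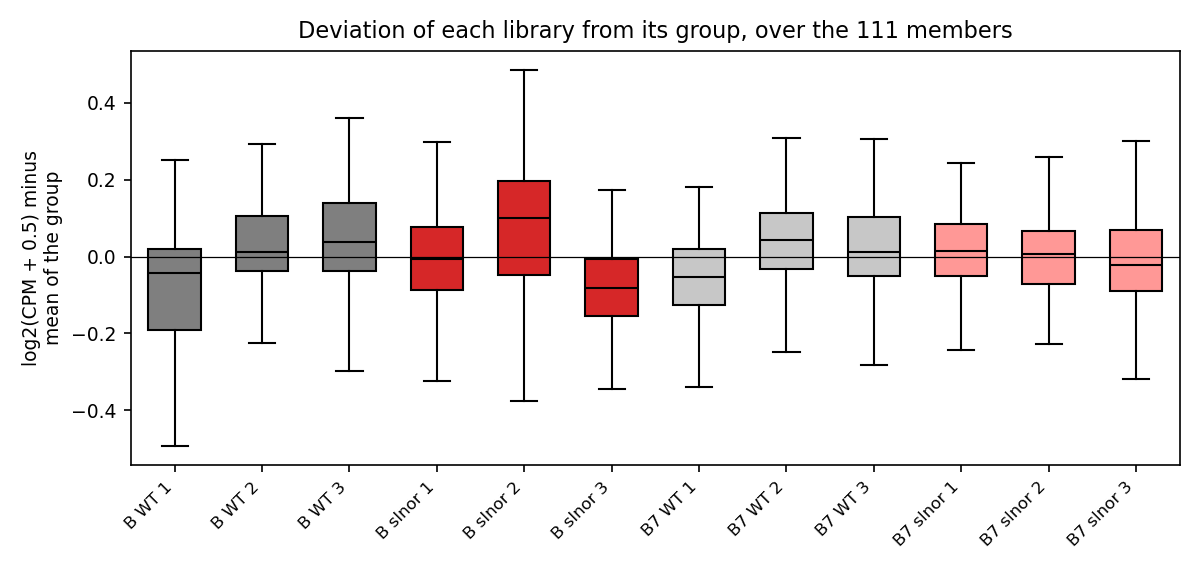
Each box summarises 1 library over the 111 genes, with the deviation of log2(CPM + 0.5) from the mean of its group on the y axis; the line is the median, the box spans the quartiles, the whiskers reach 1.5 interquartile ranges and points beyond are not drawn. The slnor breaker replicate 2 has the highest median, 0.1, and replicate 3 the lowest, -0.081.

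Compared with the other genes higher in slnor at breaker, the 111 differed in later behaviour. The breaker log2 fold change had a like median, 1.75 for the 111, 1.75 for the 321 with a later ratio above 1.5 and 1.75 for the 22 with a ratio below 0.67. In WT, 46.8% of the 111, 33.6% of the 321 and 90.9% of the 22 rose, and 31.5%, 47.4% and 9.09% fell. In slnor, 83.8%, 57.6% and 59.1% fell. The slnor breaker group held the highest mean for 87.4%, 67.3% and 36.4% of the 3 sets. These shares follow in part from the later ratio that divides the sets, and no test was made between them.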

How the data were processed

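RNA-seq counts of 12 fruit libraries (4 groups of 3) were analysed. The authors deposited raw counts as 1 table for all libraries, and a further table per library whose unit is not named. The latter was read as FPKM, because gene lengths implied by count, value and library total matched between libraries within 1% for 100% of 7290 genes. These FPKM values deposited by the authors served only for lengths and levels between genes. The submitters' processing notes name HISAT, StringTie, UMI-tools and edgeR. They do not state versions or roles, and the sources used here do not give the kit, strand setting, build or annotation, so reads of overlapping or antisense genes may be mixed.

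Tests used edgeR 4.0.16 in R 4.3.3 (glmQLFit and glmQLFTest, TMM scaling, filterByExpr) in 1 fit of all libraries, with Benjamini-Hochberg adjustment over 20070 genes and calls at an adjusted p under 0.05. The standard error is the size of the log2 change over the root of its F statistic. DESeq2 1.42.0 was an alternative. Scripts were tested on simulated data. TMM factors lay between 0.9474 and 1.0916, with a common biological coefficient of variation of 7.39%. Replicate pairs differed beyond sampling noise, with chi-square from 4.635 to 14.21 per degree of freedom. Bounds with 3 counts cover counting error only.

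The genes, lists and tests were chosen with earlier results of these data known. List genes were paired with identifiers from published nomenclature, and 94 of 127 pairs matched RefSeq genes (assembly SLM_r2.1) on the same chromosome at a rank within 3% of the chromosome's genes; unmatched genes are given by identifier. Named were every chosen gene on a list and, by identifier, the 2 of largest breaker ratio with at least 10 CPM in slnor. That ratio used library totals with the added 0.5, and the level used library totals before it was added. Also named were the 2 of largest fitted rise and 2 of largest fitted fall in WT, and the 2 nearest a limit of the rule.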

Additional observations from a re-analysis of the deposited data

Results flagged for a closer look

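The genotype difference changed between the stages for 10 named genes with a count in every group, by edgeR's interaction term in the fit of all 12 libraries. The choice of genes fixed this difference, so the values describe it and are no evidence for it. The interaction, the slnor stage change minus the WT stage change in log2 units, was -2.40 for AOS1 (Solyc04g079730.1), -2.46 for JAZ2 (Solyc12g009220.2) and -6.22 for Solyc11g011030.2 of the jasmonate list. It was -3.07 for CHI9 (Solyc10g055810.2), -1.29 for NP24 (Solyc08g080640.2) and -1.68 for AADC1A (Solyc08g068680.4). Among genes known by identifier it was -5.21 for Solyc01g087810.2, -3.81 for Solyc01g059965.1, -0.87 for Solyc01g150164.1 and -0.73 for Solyc04g079940.3, the last pair being the genes nearest to a limit of the rule.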

How the results depend on the processing

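The number of genes was 111 with library totals, 87 with TMM-scaled CPM (83 of them among the 111), 86 with DESeq2 size factors, 99 and 105 with 0.1 and 1 CPM added, 204 at a breaker ratio of 2, 78 at a ratio of 3, 65 in a later window from 0.8 to its inverse and 74 at a level of 10 CPM. Leaving out 1 library at a time gave 98 to 115, and 76 genes remained in all 12 such sets. Named genes lost in at least 1 of these sets were Solyc04g079940.3, Solyc04g025530.3, Solyc11g011030.2, Solyc08g066140.3, Solyc01g150164.1, Solyc12g011033.1 and Solyc10g017970.1. Library totals as scaling moved the median of all genes by 0.198 log2 units at breaker and 0.103 later; the medians of the 111 became 1.93 at breaker, 0.30 later and -1.62 for the slnor stage change, and the cause is that scaling. Leaving out 1 library moved the 4 medians within 1.73 to 1.85 at breaker, 0.14 to 0.24 later, 0.19 to 0.25 for the WT stage change and -1.56 to -1.47 for the slnor stage change. No count of calls over the 111 moved by more than 1.5 times, and no named value that passed its test changed sign, under library totals, DESeq2, no low-count filter, the 2-group fit, the block or leaving out a library. With the replicate number as a block, 111 genes were higher at breaker, and 35 were higher and 17 lower later. In WT, 52 rose and 35 fell with that block. Deviations of same-numbered libraries were at most weakly correlated, from -0.0715 to 0.0702. Such correlations cannot show whether the numbers pair libraries, for example by plant. AADC1A and CHI9 passed later under 5 and 2 alternatives, Solyc01g150164.1 passed its slnor stage change under 4, and GA2ox5 no longer passed later in the 2-group fit. Levels near 0 rest on few counts.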
